A study of Homo sapiens with 7 samples.

Results

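The 10 genes described here, CDH1, CDH3, EPCAM, CDH2, VIM, SNAI1, SNAI2, ZEB1, ZEB2 and TWIST1, mark the epithelial or the mesenchymal state of a cell. They were chosen by name from the 20162 protein-coding genes of GENCODE 44 on hg19, by a rule that uses no measured value. Earlier results of these data were known when they were chosen. Every interval of the deposited peak lists over a gene body or within 10 kb of it was taken.

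HCT116 cells, an established human colorectal carcinoma line, were cultured at 200000 cells per well, crosslinked and sonicated in the plate with the PIXUL instrument (6 min, 100 µl), and chromatin from 1 well was precipitated with each antibody. The cells were untreated as far as the labels say, and the libraries differ only in the antibody: H3K4m3, H3K9Ac, H3K4m1, H3K36m3, H3K27m3 or CTCF. With 1 library per antibody there is no replicate error and no test, and values of different antibodies are not on a common scale. A seventh library, H3K27Ac, was not analysed here.

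Epithelial cells are held together by E-cadherin (CDH1) and related adhesion proteins. During epithelial-mesenchymal transition the transcription factors of the SNAI, ZEB and TWIST families repress such genes through E-box sequences, and N-cadherin (CDH2) and the intermediate filament vimentin (VIM) are gained. H3K4m3 and H3K9Ac lie at active promoters, H3K4m1 around promoters and at enhancers, H3K36m3 over transcribed bodies and H3K27m3 over genes held by Polycomb, and CTCF binds insulators and loop anchors.

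Each listed interval carries a fold enrichment, set by the study against input, and a −log10 q-value, both for the whole interval. The limits of the study were applied to them: a fold over 2 with a q-value under 1e-03 for H3K4m1 and H3K27m3, and a fold over 5 with a q-value under 1e-10 for H3K4m3, H3K9Ac, H3K36m3 and, by the same choice, CTCF. An interval was counted at a transcription start site (TSS) when it overlapped the 1 kb on either side of the TSS of the canonical transcript. Read numbers are not part of the lists, so sequencing depth is unknown and an unlisted mark is not shown to be absent. Of the 8 colon epithelium markers examined, CDX2, KRT8 and KRT18 had H3K4m3 past the limits at the TSS, and VIL1, CDX1, KRT20, LGALS4 and CDH17 had none listed. This share, 37.5%, is under the 59.1% of all protein-coding genes. It passed at 0 of 3 blood markers, 0 of the 2 endothelium markers found in the annotation and 1 of 4 fibroblast markers, COL1A1. The colon label thus comes from the cell line and is not established by these marks. The 3 of 8 markers that passed were the intestinal transcription factor CDX2 and a pair of keratins.

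The sequences that the E-box binding factors could read were taken from hg19, over 250 bases before and 50 bases after each TSS. The letters CAGGTG and the same site on the other strand, CACCTG, were searched. CDH1, CDH3, EPCAM and ZEB1 each held 3 such sites and SNAI1 held 1, whereas the other 5 promoters held 0. Of 20140 protein-coding promoters of this length, 20.4% held at least 1 and 0.616% at least 3. Among promoters with H3K4m3 past the limits at the TSS the share with at least 1 was 18.2%. The counts hold for these letters only. With the wider E-box form CANNTG, where N is any base, 7 of the 10 promoters held a site, beside 63.9% of all.

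For CDH3, an epithelial cadherin, and for ZEB1, a repressor with such sites of its own, 26 bases of hg19 around 2 of the 3 sites are shown 5′ to 3′ on the strand of the gene, with the E-box in capitals. The 250 bases before the CDH3 TSS overlap an exon of the antisense transcript CDH3-AS1.
CDH3, 98 bp upstream, chr16:68679105-68679130 (plus): acatcggtccCACCTGcgagggggcg
CDH3, 52 bp upstream, chr16:68679151-68679176 (plus): aatcagcaccCACCTGcgctcacctg
ZEB1, 242 bp upstream, chr10:31607893-31607918 (plus): ctccccaccaCACCTGaggaaaactt
ZEB1, 85 bp upstream, chr10:31608050-31608075 (plus): tgtcgtaaacCAGGTGcggtggggag
The third CDH3 site begins 42 bp upstream, close enough to the second for its letters to end the second run in lower case. The third ZEB1 site begins at base 34 of the transcript. ZEB1, itself an E-box binding repressor, thus held as many of these letters as each of the 3 epithelial genes.

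For genes that mark the mesenchymal state the 250 bases before the TSS are shown on the strand of the gene, with each CG dinucleotide (CpG) in capitals, since they hold 0 of these E-boxes and CpG-rich promoters usually carry H3K4m3. They are chr18:25757095-25757344 (minus strand) for CDH2, chr10:17269990-17270239 (plus) for VIM and chr7:19157260-19157509 (minus) for TWIST1.
CDH2: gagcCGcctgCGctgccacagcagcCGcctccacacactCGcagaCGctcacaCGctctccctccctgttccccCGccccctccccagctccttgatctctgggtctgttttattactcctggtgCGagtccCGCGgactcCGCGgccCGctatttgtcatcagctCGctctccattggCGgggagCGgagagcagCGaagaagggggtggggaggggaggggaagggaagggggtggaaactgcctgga
VIM: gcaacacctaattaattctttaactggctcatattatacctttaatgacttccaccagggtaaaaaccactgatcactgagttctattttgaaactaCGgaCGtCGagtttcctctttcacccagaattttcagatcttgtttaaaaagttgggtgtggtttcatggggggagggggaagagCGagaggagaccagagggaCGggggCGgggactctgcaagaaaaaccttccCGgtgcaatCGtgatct
TWIST1: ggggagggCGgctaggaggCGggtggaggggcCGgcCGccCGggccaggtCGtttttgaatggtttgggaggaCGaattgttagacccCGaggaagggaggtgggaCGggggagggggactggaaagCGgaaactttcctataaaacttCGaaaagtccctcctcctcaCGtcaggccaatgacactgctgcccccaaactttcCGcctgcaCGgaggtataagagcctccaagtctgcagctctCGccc

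Over the full 300-base window SNAI1 held 37 CpG, EPCAM 36, CDH2 23, CDH1 21, CDH3 20, TWIST1 19, ZEB1 17, ZEB2 14, SNAI2 13 and VIM 10. The median protein-coding promoter held 23, with 29 where H3K4m3 passed the limits at the TSS and 7 where it did not. CDH2 therefore stood at the median while carrying no listed H3K4m3. Of the promoters with at least as many CpG as CDH2, 84.8% had H3K4m3 past the limits, and of those with at least as many as ZEB2, which also lacked it, 81.2%. CDH1 and CDH3 had slightly fewer CpG than CDH2 and carried H3K4m3.

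At the TSS, H3K4m3 passed the limits at 5 of the 10 genes, CDH1, CDH3, EPCAM, SNAI1 and ZEB1, beside 59.1% of all protein-coding genes. H3K9Ac passed at the same 5 genes, beside 58.5%. H3K4m1 passed at 7, with VIM and SNAI2 added, beside 49.1%. H3K36m3 passed at 0 of the 10, beside 0.298% of all genes, and H3K27m3 at 1, VIM, beside 1.22%. CTCF passed at 1, SNAI1, beside 13.6%. Extending H3K27m3 from the TSS to the gene body still gave VIM alone, beside 3.03% of all genes. These counts over the set are close to the background or rest on single genes, so the set is described gene by gene.

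**Figure D1:**
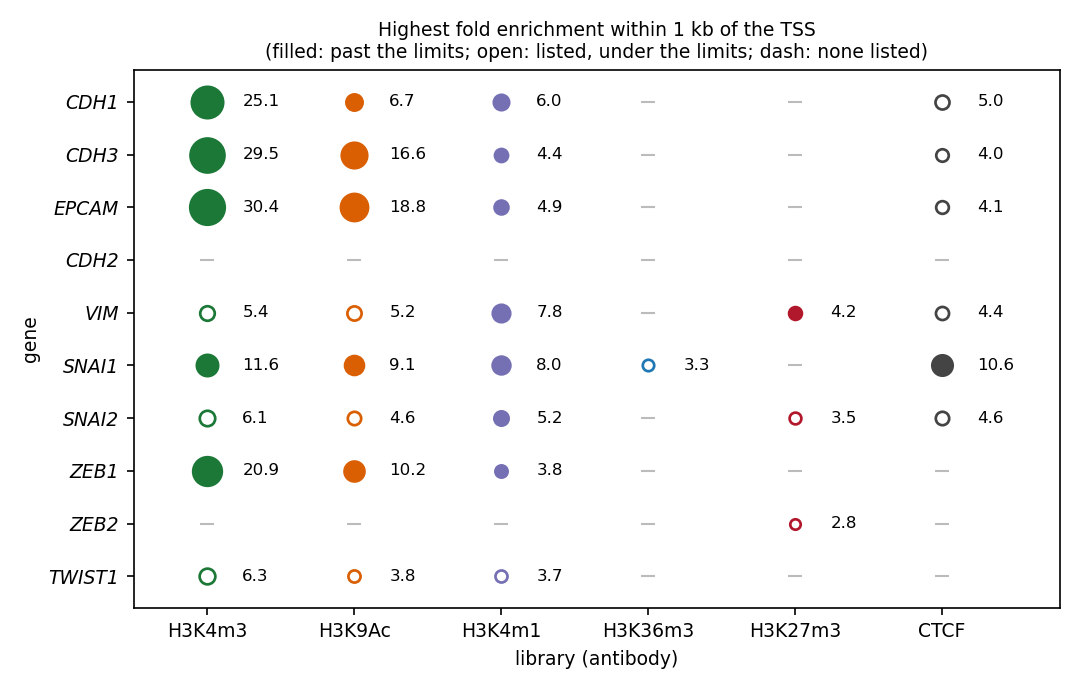
Fold enrichment (area of each circle and the number beside it) of the highest listed interval within 1 kb of the TSS, for 10 genes (rows) and 6 libraries (columns); filled circles passed the limits, open circles were listed without passing, and a dash means none was listed. CDH1, CDH3, EPCAM, SNAI1 and ZEB1 have filled H3K4m3, H3K9Ac and H3K4m1 circles, and CDH2 has none in any library.

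The 3 genes that define epithelial adhesion carried the active marks together and no H3K27m3. Neither trait is rare. H3K4m3, H3K9Ac and H3K4m1 all passed at 43.1% of protein-coding genes. H3K27m3, with start and body counted together, was listed for only 21.3% of them. CDH2, SNAI1 and TWIST1 likewise had no H3K27m3 listed. EPCAM, a homophilic adhesion molecule of epithelia (chr2, plus strand, TSS at 47596450), had H3K4m3 at 30.4-fold, the highest of the 10 genes and higher than at 83.7% of genes with a TSS interval past the limits. Its H3K9Ac was 18.8-fold, higher than at 90.4% of such genes, and its H3K4m1 was 4.91-fold. The widths were 1973, 2950 and 4110 bp.

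P-cadherin, the product of CDH3 (chr16, plus strand, TSS at 68679213), is the cadherin of basal epithelial layers. Its H3K4m3 was 29.5-fold, its H3K9Ac 16.6-fold and its H3K4m1 4.37-fold. The H3K4m3 interval reached from 933 bp before to 1466 bp after the TSS and also covered the start of the antisense transcript CDH3-AS1.

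CDH1 (chr16, plus strand, TSS at 68771195) had H3K4m3 at 25.1-fold over 1604 bp, above the median of 22.5 for genes past the limits. Its H3K9Ac was only 6.74-fold, with a lower value at 1.88% of genes past the limits, whereas the interval was wider than at 97.2% of them. With the fold limit multiplied by 1.5, H3K9Ac passed at 4 of the 10 genes and no longer at CDH1. The H3K9Ac interval ran for 11088 bp, from 762 bp before the TSS to 10325 bp after it, into intron 2, which is 63258 bp long. The H3K4m1 interval had the same shape, 11426 bp at 6.05-fold, and was wider than at 97.1% of genes. CDH1 thus had a short H3K4m3 interval at the start of a long one of H3K9Ac and H3K4m1, while at CDH3 and EPCAM no TSS interval was wider than 4211 bp. The folds of CDH1 and EPCAM thus belong to stretches of different length.

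**Figure D2:**
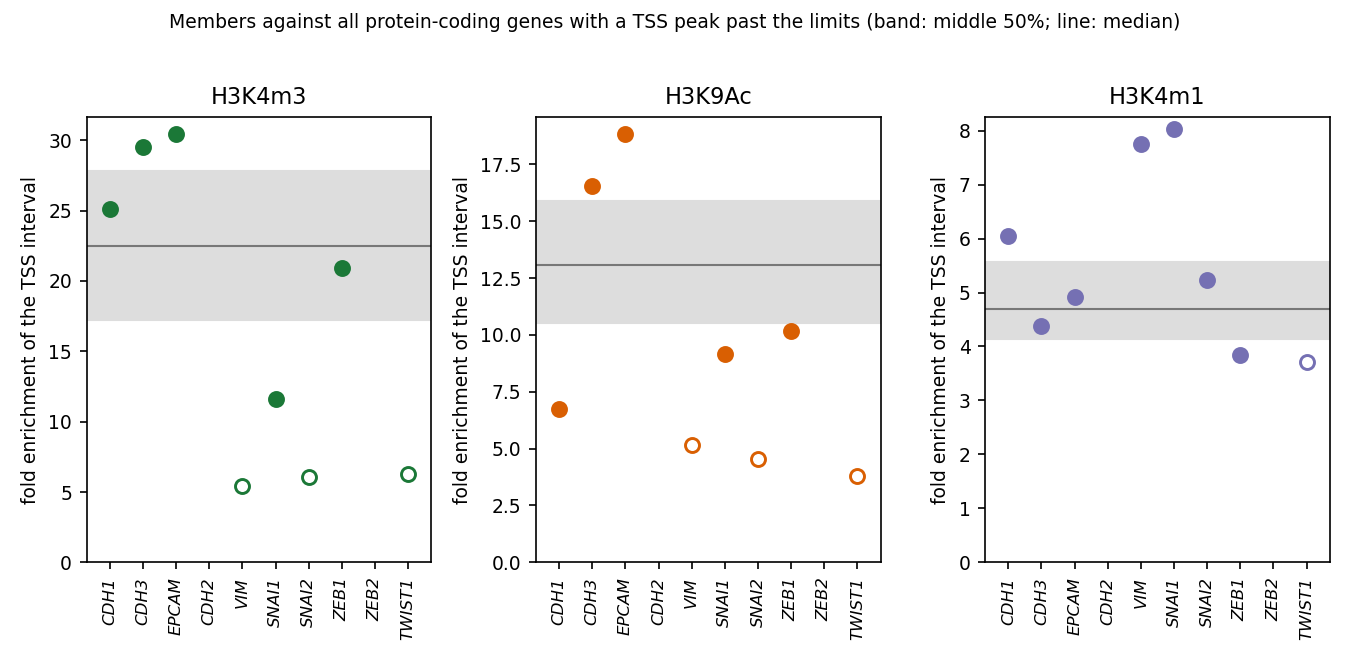
Fold enrichment of the TSS interval (y axis) for each gene (x axis) in the H3K4m3, H3K9Ac and H3K4m1 libraries; filled points passed the limits, open points did not, and genes without a listed interval have no point. The line and band give the median and the middle 50% of all protein-coding genes past the limits; EPCAM and CDH3 lie above the H3K4m3 and H3K9Ac bands, and VIM, SNAI1 and CDH1 above the H3K4m1 band.

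Of the mesenchymal genes, CDH2 was almost bare and VIM was mixed. CDH2, the cadherin of neural and mesenchymal cells (chr18, minus strand, TSS at 25757094), had no interval of any of the 6 marks within 1 kb of its TSS. A start without any mark past the limits is common. It was found at 6828 protein-coding genes, 33.9%, which include ZEB2 and TWIST1. With all listed intervals counted, 5450 genes had none of H3K4m3, H3K9Ac, H3K4m1 and H3K27m3 there. Across the CDH2 body of 245068 bp and 10 kb on each side, 3 intervals were listed. They were a CTCF interval in intron 3 at 4.78-fold and H3K4m1 in intron 2 at 3.05-fold, both under the limits, and H3K4m1 at 4.07-fold past the limits, 254 kb downstream of the TSS and beyond the 3′ end. That made 1.13 intervals per 100 kb, with a lower density at 5.60% of protein-coding genes and a median of 16.9.

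VIM (chr10, plus strand, TSS at 17270240) carried H3K4m1 at 7.75-fold over 5972 bp, higher than at 95.6% of genes past the limits. H3K4m3 was listed at 5.41-fold and H3K9Ac at 5.18-fold, both above the fold limit but with −log10 q-values of 6.74 and 6.95, short of the required 10. H3K27m3 passed the limits at 4.20-fold with a −log10 q-value of 3.68, beside a middle 50% of 3.85-fold to 4.33-fold for TSS intervals past the limits. This call was lost when intervals had to cover 50% of the TSS window. The interval was listed over chr10:17267007-17270155 and so ended 85 bp before the TSS. At 3149 bp it was short beside the median of 11564 bp at genes with H3K27m3 past the limits at the TSS. Only 13.4% of those genes had a narrower one. The VIM interval overlapped the H3K4m1 interval by 1363 bp, H3K9Ac by 447 bp and H3K4m3 by 282 bp. The H3K27m3 thus lay upstream of the start and the active marks mainly downstream, with a shared stretch between. H3K4m1 together with H3K27m3, and no other mark past the limits, was found at 17 protein-coding genes, 0.0843% of all. Whether the marks lie on the same molecules, alleles or cells cannot be told from separate libraries.

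The transcription factors of the transition did not share a state. SNAI1 and ZEB1 had H3K4m3 and H3K9Ac past the limits, SNAI2 and TWIST1 had weaker intervals, and ZEB2 had no active mark listed at the TSS.

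SNAI1 encodes Snail, a zinc finger repressor of CDH1 (chr20, plus strand, TSS at 48599517). Its H3K4m3 was 11.6-fold, its H3K9Ac 9.15-fold and its H3K4m1 8.04-fold. Against genes past the limits, the H3K4m3 exceeded 8.22% and the H3K9Ac 14.8%, while the H3K4m1 exceeded 96.7%. SNAI1 and VIM had the highest H3K4m1 folds at a TSS among the 10 genes.

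ZEB1, a zinc finger and homeodomain repressor of epithelial genes (chr10, plus strand, TSS at 31608145), had H3K4m3 at 20.9-fold over 3318 bp, wider than at 91.8% of genes past the limits. Its H3K9Ac was 10.2-fold. The H3K4m1 interval, at 3.84-fold, was only just past the q-value limit of 1e-03. The H3K4m3 interval also covered the start of ZEB1-AS1, which runs the other way. H3K27m3 was listed in intron 1 from 2027 to 2989 bp after the TSS, at 3.33-fold and under the limits. ZEB1 therefore shared all 3 active marks with CDH1, CDH3, EPCAM and SNAI1, as did 8691 protein-coding genes in all, 43.1%. These 3 and no other mark passed at 6748 genes, 33.5%, which include ZEB1, CDH1, CDH3 and EPCAM, while SNAI1 also had CTCF.

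ZEB2, its paralogue (chr2, minus strand, TSS at 145277686), had none of these marks. The intervals near its start were both H3K27m3 and both under the limits, at 2.78-fold from 380 to 1763 bp after the TSS and at 3.66-fold in intron 2. The others of its region were CTCF in intron 2 and H3K4m1 at 3.69-fold beyond the 3′ end, also under the limits. Its 4 listed intervals over a region of 177 kb gave 2.26 per 100 kb, with a lower density at 6.97% of genes. H3K4m3 was thus listed at the start of ZEB1 and not at that of its paralogue.

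SNAI2 encodes Slug, a relative of Snail (chr8, minus strand, TSS at 49833988). It had H3K4m1 past the limits at 5.24-fold. H3K4m3 at 6.09-fold and H3K9Ac at 4.56-fold were listed with −log10 q-values of 8.75 and 5.63, under the limit. H3K27m3 was also listed, at 3.54-fold with a −log10 q-value of 2.44, from 110 to 2228 bp after the TSS, and it overlapped H3K4m1 by 999 bp, H3K4m3 by 408 bp and H3K9Ac by 329 bp. With all listed intervals counted, SNAI2 and VIM had H3K4m3, H3K9Ac, H3K4m1 and H3K27m3 together at the TSS, as did 519 protein-coding genes, 2.57%.

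TWIST1 encodes a basic helix-loop-helix factor (chr7, minus strand, TSS at 19157259). Each of its TSS intervals was narrow and under the limits. H3K4m3 was 6.31-fold over 732 bp with a −log10 q-value of 9.46, just short of the limit of 10. H3K9Ac was 3.77-fold over 832 bp and H3K4m1 3.71-fold over 300 bp. All 3 began inside exon 1, 53 to 896 bp after the TSS, and none reached the TSS itself. A second group of intervals lay about 16 kb downstream, where H3K4m1 passed the limits at 4.55-fold and H3K4m3 and H3K9Ac were listed at 3.45-fold and 3.46-fold. No H3K27m3 was listed over TWIST1 or the 10 kb around it.

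**Figure D3:**
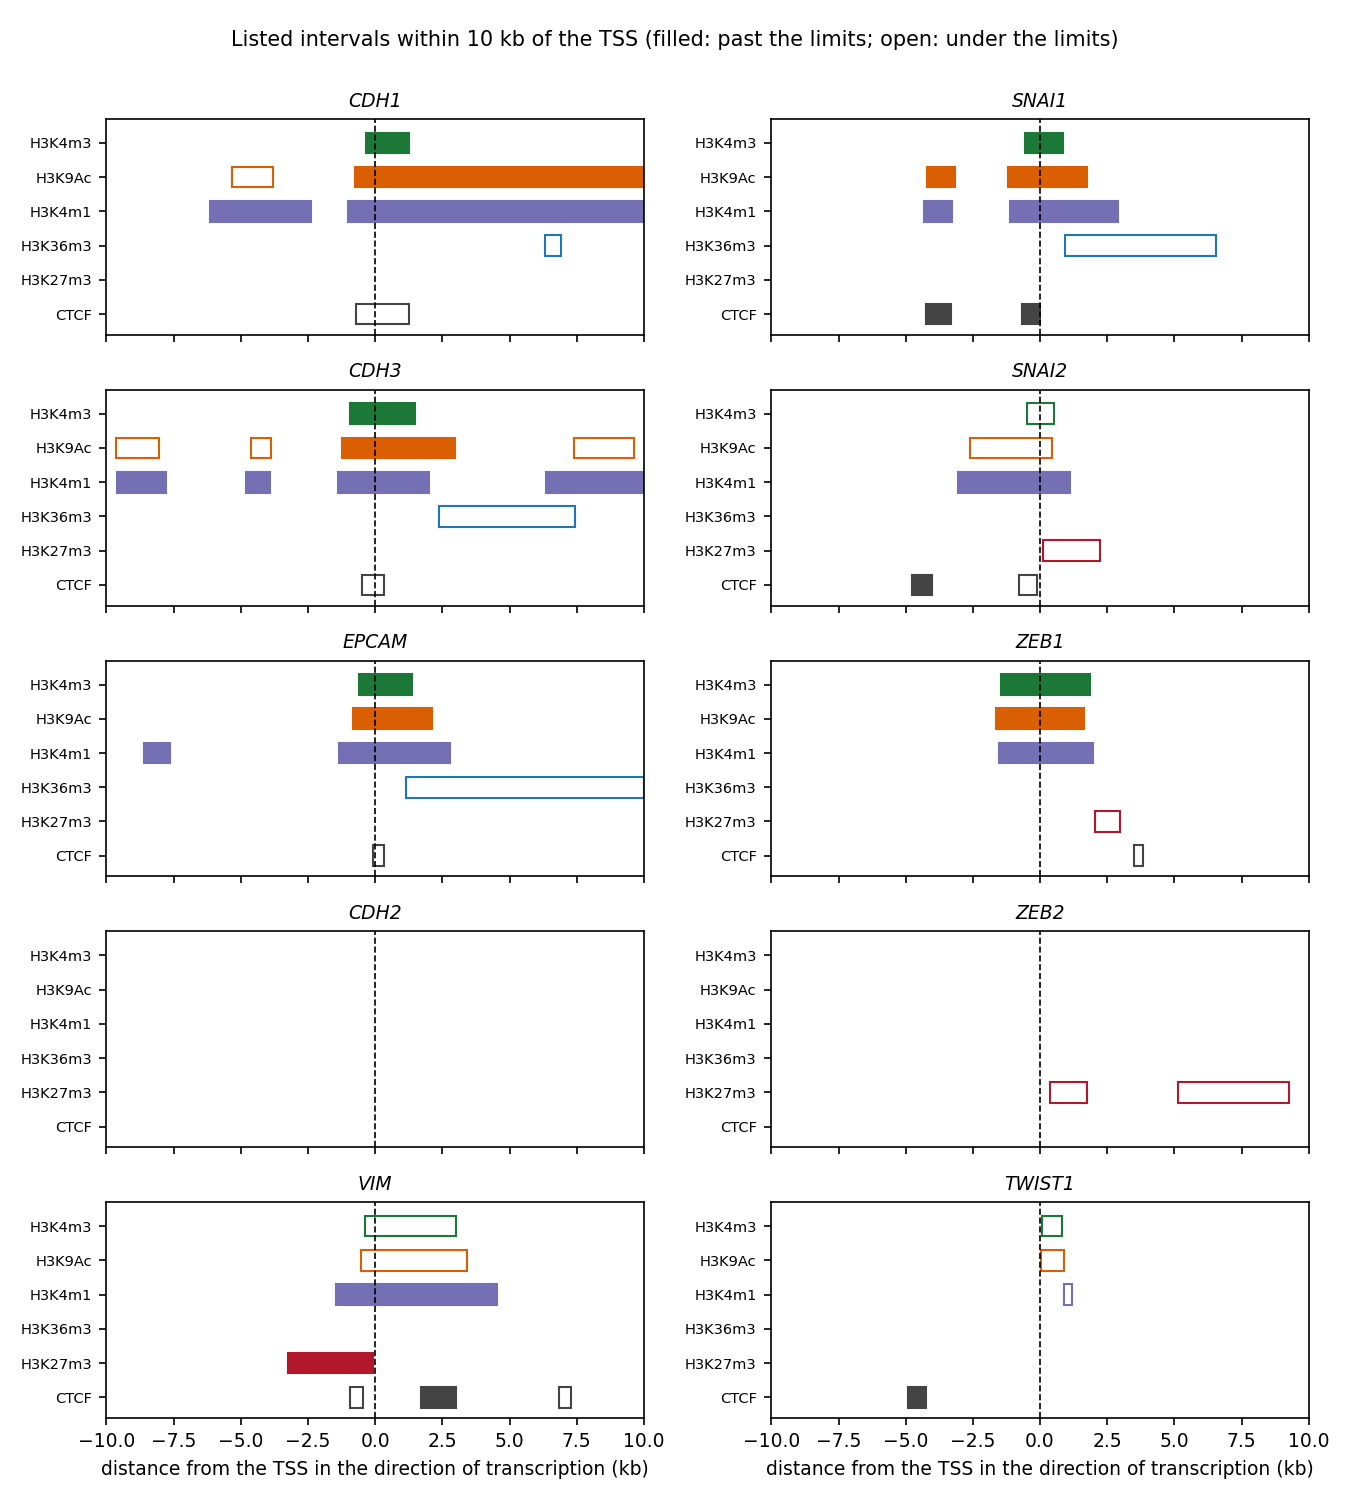
Listed intervals within 10 kb of the TSS of each gene; the x axis is the distance in kb in the direction of transcription, each row is a library, and filled bars passed the limits while open bars did not. H3K9Ac and H3K4m1 run past 10 kb at CDH1, H3K27m3 stops just before the TSS at VIM, and the CDH2 panel is empty.

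Over whole gene bodies with 10 kb on each side, 115 distinct intervals were listed, 50 of them past the limits. By mark, 11 H3K4m3 (6 past the limits), 27 H3K9Ac (8), 33 H3K4m1 (24), 14 H3K36m3 (0), 6 H3K27m3 (1) and 24 CTCF intervals (11) were counted. CDH3 held the most, 31 with 14 past the limits, then CDH1 with 26 and 10. SNAI1 had the highest density, 30.9 per 100 kb, and 7 of its 8 intervals passed. ZEB1 and TWIST1, with 5.19 and 7.72 per 100 kb, were also below the median gene, while CDH1, EPCAM, VIM, CDH3 and SNAI2 ranged from 22.0 to 29.0. CDH2, ZEB1 and ZEB2 have the longest bodies of the set. The annotated TWIST1 body spans 96646 bp and its canonical transcript 2169 bp, so its density is mostly that of sequence outside this transcript.

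CDH3 and CDH1 lie in tandem, their TSSs 91982 bp apart, and the 10 kb margins of their annotated bodies shared 6 intervals. H3K4m3 was listed at each TSS and nowhere between. In the 37000 bp from the end of the canonical CDH3 transcript to the CDH1 TSS, leaving out the intervals at that TSS itself, there were 3 H3K4m1, 3 H3K9Ac, 2 CTCF, 1 H3K36m3, 0 H3K4m3 and 0 H3K27m3 intervals. The H3K4m1 interval at chr16:68737952-68743253 had the highest H3K4m1 fold of the region, 7.40, and held a CTCF interval at 16.1-fold. A further H3K4m1 interval, at 6.08-fold, lay from 6165 to 2399 bp before the CDH1 TSS. Beyond the CDH1 3′ end, the next H3K4m3, at 21.2-fold, covered the TSS of TANGO6, together with H3K9Ac at 14.8-fold and H3K4m1 at 3.77-fold.

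**Figure D4:**
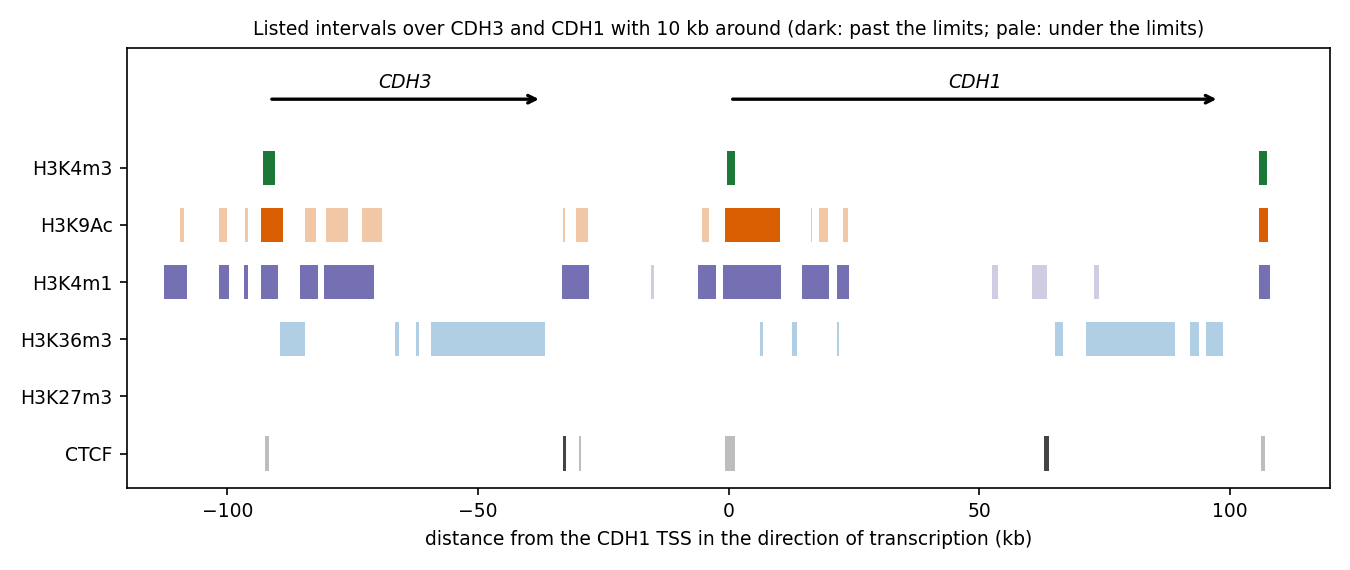
Listed intervals over CDH3 and CDH1 and 10 kb around them; the x axis is the distance in kb from the CDH1 TSS, rows are libraries, arrows are the canonical transcripts, and dark bars passed the limits while pale bars did not. H3K4m1 runs through the first part of both genes and the space between them, the widest H3K36m3 bars lie in their 3′ parts, and the H3K27m3 row is empty.

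H3K4m1 past the limits without any listed H3K4m3 marks candidate distal elements. CDH3 had 7 of them among 9 H3K4m1 intervals, all with H3K9Ac listed, and CDH1 had 3 of 5, also all with H3K9Ac. The H3K9Ac at these CDH3 and CDH1 elements was under its limits throughout. EPCAM had 2 of 4, and SNAI1, ZEB1 and CDH2 had 1 each. VIM, SNAI2, ZEB2 and TWIST1 had 0. A share over all genes was not computed for these counts. The regions also differ in length, from 24.1 kb at SNAI2 to 265 kb at CDH2. The element just upstream of CDH1 is counted for both cadherins. In intron 2 of CDH3 the widest reached 10110 bp at 5.64-fold, beside another at 4.34-fold. Before its TSS, CDH3 had 3, at 4.04-fold, 5.02-fold and 4.67-fold. The CDH1 elements in intron 2 stood at 4.33-fold and 4.47-fold, 14584 to 24140 bp after the TSS. Most elements of the cadherin pair thus lay upstream of the genes or in intron 2. Upstream of EPCAM, one of 5313 bp stood at 7.31-fold, 16285 to 10973 bp before the TSS, and one of 971 bp at 3.99-fold. Farther up, at the start of the long non-coding RNA EPCAM-DT, H3K4m1 at 5.09-fold and H3K9Ac at 7.90-fold passed, with H3K4m3 listed at 5.51-fold under the limits. In ZEB1 the element lay in intron 1, 34067 bp after the TSS, at 3.82-fold.

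For H3K36m3, 0 of the 14 intervals passed the limits, and so did few in the whole list, 90 of 40010, so the listed intervals are described. EPCAM had 1 interval of 20515 bp, from 1144 bp after the TSS to beyond the 3′ end, which covered 93.5% of its canonical transcript at 3.84-fold. SNAI1 was covered over 84.4% (3.34-fold), CDH3 over 52.3% (highest interval 3.50-fold) and CDH1 over 26.8% (3.48-fold). In CDH3 and CDH1 the long intervals lay in the 3′ parts, 22636 bp from intron 3 to just past the transcript end in CDH3 and 17759 bp from exon 5 to intron 13 in CDH1. Shorter ones were listed in intron 2 of both, the longest of them 5075 bp, starting 2370 bp after the CDH3 TSS. ZEB1 had 0.268% covered despite its H3K4m3, and CDH2, VIM, SNAI2, ZEB2 and TWIST1 had 0. Among all protein-coding genes, 56.3% had some H3K36m3 over the annotated body. By that annotated body, EPCAM was covered over 40.4%, SNAI1 over 84.4%, CDH3 over 31.8% and CDH1 over 26.8%. These shares were higher than at 69.9%, 91.7%, 65.9% and 63.4% of genes, and 51.1% was the 75th percentile. H3K27m3 covered 55.3% of the SNAI2 transcript, 4.04% of ZEB2 and 0.457% of ZEB1, all under the limits, and 0% of the others. No gene of the set had sizeable shares of both.

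**Figure D5:**
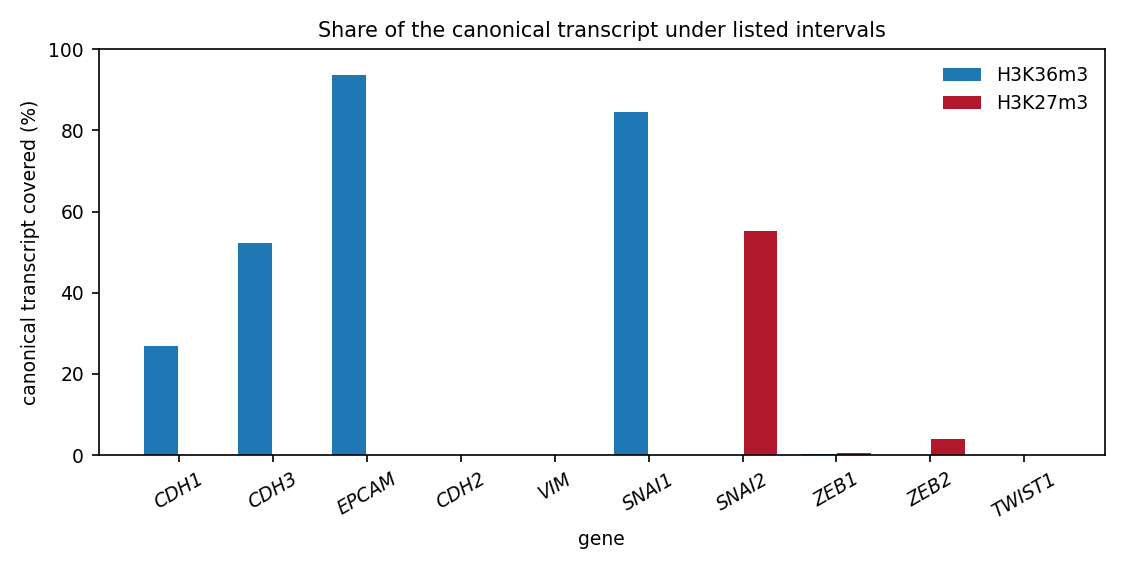
Percent of the canonical transcript (y axis) of each gene (x axis) under listed H3K36m3 or H3K27m3 intervals, limits not applied. EPCAM, SNAI1, CDH3 and CDH1 have H3K36m3 over 93.5, 84.4, 52.3 and 26.8% and no H3K27m3, and SNAI2 has H3K27m3 over 55.3% and no H3K36m3.

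CTCF was listed 24 times over the 10 regions, and 11 intervals passed the limits. The strongest, at 30.3-fold, lay 4249 to 3312 bp before the SNAI1 TSS and ranked 83 of 24536 past the limits. H3K9Ac at 6.28-fold and H3K4m1 at 7.35-fold were listed over the same place, and a second CTCF interval at 10.6-fold reached the SNAI1 TSS. CTCF at 16.1-fold lay upstream of TWIST1, 4914 to 4247 bp before its TSS. The SNAI2 region held one at 14.2-fold, 4782 to 4024 bp before the TSS, and EPCAM one on each side, at 9.06-fold upstream, over the start of BCYRN1, and 10.2-fold downstream. These lay outside the promoters. The CTCF intervals in intron 2 of CDH1 and of ZEB1 passed at 6.10-fold and 5.82-fold. At the TSS of CDH1, CDH3, EPCAM, VIM and SNAI2, CTCF was listed under the limits at 5.03-fold, 4.01-fold, 4.11-fold, 4.39-fold and 4.59-fold. The regions of CDH2 and ZEB2 had 1 CTCF interval each, both under the limits, at 4.78-fold and 4.08-fold.

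The 12-base CTCF core sequence, searched on both strands, was present without mismatch in 5 of these 11 intervals and in 0 of the 13 under the limits. Over the whole list it was in 22.4% of the intervals past the limits and 7.52% of those under them. With 1 mismatch allowed the numbers were 7 of 11 and 3 of 13, beside 65.9% of all intervals past the limits and 37.2% of those under them. The core of 4 of the 5 is shown in capitals within 30 bases of hg19, on the strand on which it reads 5′ to 3′.
SNAI1 upstream, chr20:48595687-48595716 (plus): gcgccttggCCAGCAGAGGGCgccagagga
CDH3 downstream, chr16:68738408-68738437 (plus): tccccacgcCCAGCAGAGGGCaccattcac
VIM intron 3, chr10:17272820-17272849 (minus): gtcttcccgCCACTAGAGGGCtttacgcgc
TWIST1 downstream, chr7:19091578-19091607 (minus): agggaatggCCAGTAGGTGGCgattatggg

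SNAI1 and CDH3 have identical 12 bases in capitals, in intervals of 30.3-fold and 16.1-fold. The VIM interval was 9.67-fold and lay 1703 to 3024 bp after the TSS, and the TWIST1 one was 7.54-fold, 65 kb after the TSS. In the strong interval upstream of TWIST1 the best match had 2 mismatches, so fold and core did not go together there.

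The miR-200 family, which represses ZEB1 and ZEB2 through sites in their mRNAs, is encoded in 2 clusters. The mature sequences from RefSeq (GRCh38.p14) are shown with the seed, bases 2 to 8, in capitals.
hsa-miR-200b-3p: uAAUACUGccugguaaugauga
hsa-miR-200c-3p: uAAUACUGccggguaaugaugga
hsa-miR-429: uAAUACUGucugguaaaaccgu
hsa-miR-200a-3p: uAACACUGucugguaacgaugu
hsa-miR-141-3p: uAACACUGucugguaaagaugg

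The first 3 share one seed and the last 2 another. On chromosome 1, MIR200B, MIR200A and MIR429 lay under an H3K4m1 interval of 13401 bp at 6.88-fold. H3K4m3 at 27.4-fold ended 1712 bp before MIR200B, and H3K9Ac at 17.0-fold ended 821 bp before it. On chromosome 12, MIR200C and MIR141 lay under H3K4m3 at 24.1-fold and H3K9Ac at 17.3-fold, with CTCF at 9.65-fold and 15.2-fold on either side. That H3K9Ac interval was 14122 bp wide and also covered the TSSs of EMG1 and PHB2, so its fold is not that of the cluster alone. H3K36m3 was listed under the limits over the 3 miRNAs of chromosome 1 at 3.81-fold and over MIR141 at 5.38-fold. H3K4m3 and H3K9Ac thus lay over the chromosome 12 miRNAs but only upstream of those on chromosome 1, which H3K4m1 covered. In the same cells ZEB1 had H3K4m3 at its TSS and ZEB2 did not, and a link between these states was not tested. Chromatin marks do not measure the miRNAs or their effect.

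Other genes of the process were read from fixed lists. Of 20 junction and adhesion genes of epithelia, 19 had H3K4m3 past the limits at the TSS. Of 15 epithelial transcription and splicing regulators 13 had it, and EHF and FOXA2 did not. H3K27m3 passed the limits at the TSS or over the body in 0 genes of either list, beside 3.03% of all genes.

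Of 16 other transcription factors of the transition, 7 had H3K4m3, among them FOXC1, FOXQ1, HMGA2, SNAI3, SOX4 and TCF3. The fold was 29.1 at TCF3, an E-box binding factor, and 6.29 at FOXQ1, a forkhead factor. Counting both TSS and body, H3K27m3 passed the limits at 0 of these 16, beside 3.03% of all genes. It was listed at 9, beside 21.3% of all genes with it listed. Of 33 mesenchymal matrix and cytoskeleton genes, 8 had H3K4m3: AXL, COL1A1, COL6A1, COL6A2, MMP14, MYL9, S100A4 and TPM2. The fold was 29.9 at COL6A2, a chain of collagen VI, and 9.21 at COL1A1, a chain of collagen I. H3K27m3 passed at 3 of the 33, COL5A1, COL6A3 and TNC, at 3.81-fold, 4.11-fold and 3.94-fold, beside the same 3.03%. Of 15 other classical cadherins 2 had H3K4m3, CDH22 and CDH24, and 2 had H3K27m3, CDH22 and CDH4, beside the same 3.03%. CDH22 had both, at 16.6-fold and 3.84-fold. The share with H3K4m3 was above the 59.1% of all genes in the junction and regulator lists and below it in the other 3, as it was among the colon markers.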

How the data were processed

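PIXUL-ChIP-seq peak lists of 6 libraries from HCT116 cells were used, 1 library per mark. The authors mapped reads to hg19 (BWA 0.7.12) and used MACS2 in broad mode, cutoff 0.1, on each library. The submitters' processing notes also list MACS 1.4.2 and SAMtools 0.1.19. The fold enrichment that the authors deposited is a ratio on a linear scale, and their limits for it are stated relative to input. The deposited −log10 q-value belongs to the whole interval.

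Positions were overlapped (at least 1 bp) with GENCODE 44 on hg19 in Python 3.11.15 with numpy 2.4.6. Depth is unknown, and it affects the number and width of peaks and which of them pass. The limits are those of the study, and their use for CTCF was a choice made here. All 10 genes are named with their TSS intervals, their highest intervals and those past the limits. Genes of a list are named where H3K27m3 passed or where their H3K4m3 state was that of the minority. The genes and lists were chosen with earlier results of these data known. Some genes of the lists and some promoter sequences are not reported here. PECAM1 was not matched in the annotation. The overlap code found 600 of 600 simulated intervals placed to touch a TSS window, which checks the code and not the detection of peaks. With real intervals, 60 gene and mark pairs were checked against bedtools 2.31.1, of which 0 differed. Sequences come from hg19 or RefSeq. Alternatives were all deposited peaks, other limits, TSS windows, margins, transcripts and overlaps.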

Additional observations from a re-analysis of the deposited data

How the results depend on the processing

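Across 31 results and 106 alternative values, 77 stayed within 1.5 times the reported count or value. No paired analysis was possible because there is 1 library per mark. When every deposited peak was counted, a TSS interval of H3K4m3 was found at 8 genes (61.6% of all genes), H3K9Ac at 8 (64.3%), CTCF at 6 (29.5%), H3K27m3 at 3 (9.6%) and H3K36m3 at 1 (6.49%), and 4 genes had H3K27m3 at the TSS or in the body (21.3%). For the gene lists, H3K27m3 at the TSS or in the body was then found at 1 of the junction genes, 3 epithelial regulators, 9 other transcription factors, 10 matrix genes and 7 other cadherins, that is 1 of 20, 3 of 15, 9 of 16, 10 of 33 and 7 of 15, beside the same 21.3%. Requiring 50% of the TSS window to be covered left 0 genes with H3K27m3 at the TSS, 0 with it at the TSS or in the body and 0 with CTCF, so the VIM call depends on this choice. For CTCF, a window of 5 kb gave 4 genes and any annotated TSS gave 3. With only intervals past the limits, the intervals over the regions numbered 11 for CTCF, 8 for H3K9Ac, 6 for H3K4m3, 1 for H3K27m3 and 0 for H3K36m3, and the mean share of gene bodies covered was 2.41% for H3K4m3 (7.91% with all), 5.63% for H3K9Ac, 0% for H3K36m3 and H3K27m3 and 1.71% for CTCF. With margins of 50 kb, 53 H3K4m1, 26 H3K36m3 and 10 H3K27m3 intervals were counted. The canonical transcript in place of the annotated body was chosen after seeing the data. The cause of these changes was not tested beyond the construction of each alternative. Unknown depth and a single library limit every value.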
